A study of Mus musculus with 12 samples.

Results

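Endosomal Toll-like receptors and the proteins that fold, carry and serve them were followed in bone-marrow neutrophils of Rab27a knockout and wild-type mice, with and without the DNA ligand CpG-B. The set is a written list of 9 genes, found in the deposited transcript tables by gene identifier and symbol. They are the receptor genes Tlr9, Tlr7 and Tlr13, the chaperone genes Unc93b1 and Cnpy3, the transporter gene Slc15a4, the AP-3 adaptor subunit genes Ap3b1 and Ap3d1, and Hmgb1. All 9 were among the 15986 genes in the files, and all 9 passed the filter on low counts, which left 10802 genes.

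Neutrophils were isolated from bone marrow by positive selection for Ly6G and kept for 6 h at 37 °C. The 4 groups were Rab27aKO cells with 5 µM CpG-B, Rab27aKO cells without it, wild-type cells with 5 µM CpG-B and wild-type cells without it, each with 3 libraries of polyA RNA. All animals carry the strain name C57BL/6. The labels name the cells without CpG-B both vehicle and untreated. The sources used here do not state the Rab27a allele, the age or number of animals, or any pooling. The libraries of a group differ by a number in their labels, which do not say whether each came from its own animal. The p-values therefore cover only the spread among libraries, which may be technical. Rab27aKO is shortened to KO and wild-type to WT.

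Endosomal Toll-like receptors detect nucleic acids after these are taken up: TLR9 binds DNA with unmethylated CpG, TLR7 binds single-stranded RNA, and mouse TLR13 recognises bacterial ribosomal RNA. The receptors are folded in the endoplasmic reticulum with help from CNPY3, and UNC93B1 then escorts them to endosomes, where proteases trim them and MyD88 relays the signal. AP-3 sorts cargo to lysosome-related organelles, and SLC15A4 is an endolysosomal histidine and peptide transporter that holds the adaptor TASL. HMGB1 is a nuclear protein that binds DNA and can carry it to TLR9 once released. Rab27a is a small GTPase that docks secretory organelles at the plasma membrane, and CpG-B is a synthetic oligodeoxynucleotide that activates mouse TLR9.

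The stretches upstream of Tlr9 and Tlr13 are shown for a receptor gene that was called with CpG and one that was not: Tlr9 had the highest fold change of the 9 genes in both genotypes and Tlr13, the most abundant of the receptors, was not called in either. Both stretches come from RefSeq (mouse assembly GRCm38.p6) and are written 5′ to 3′. A stretch ends at the base before the RefSeq start, or before a GENCODE transcript start that lies further upstream. The Tlr9 stretch reaches the RefSeq start. The Tlr13 stretch stops at a GENCODE start, so the bases between it and the RefSeq start were neither shown nor searched. The Tlr9 stretch is chr9:106222348-106222597 on the plus strand (250 bases) and the Tlr13 stretch is chrX:106143025-106143203 on the plus strand (179 bases). Capitals mark the match to the AP-1 motif TGANTCA.

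Tlr9: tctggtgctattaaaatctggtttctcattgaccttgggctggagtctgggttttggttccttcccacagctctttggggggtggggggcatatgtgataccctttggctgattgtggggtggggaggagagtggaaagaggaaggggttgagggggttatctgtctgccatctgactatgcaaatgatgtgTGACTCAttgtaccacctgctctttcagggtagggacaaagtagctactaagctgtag

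Tlr13: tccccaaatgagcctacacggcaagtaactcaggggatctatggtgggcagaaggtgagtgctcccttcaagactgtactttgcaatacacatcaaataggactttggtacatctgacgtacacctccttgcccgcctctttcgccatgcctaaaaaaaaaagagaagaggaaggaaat

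The RefSeq table held an upstream stretch for 7 of the 9 genes. That of Slc15a4 was also cut at a GENCODE start, to 224 bases. Each was searched on both strands for 4 motifs: AP-1 as TGANTCA, the PU.1 core as GAGGAAGT, the kB consensus of NF-kB and the interferon-stimulated response element (ISRE). The only match in these 7 genes was the AP-1 motif upstream of Tlr9, whose first base lies 58 bases before the start. Among all 32851 upstream stretches of 250 bases, 6.75% held TGANTCA, 2.44% GAGGAAGT, 3.90% the kB consensus and 0.15% the ISRE. At the 179 bases shown for Tlr13 the shares were 4.89%, 1.52%, 2.77% and 0.09% in the same order. A match describes these letters only, and its absence says nothing about the factor.

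Each library held from 10928823 to 15513280 estimated counts. Levels are TMM-scaled CPM unless TPM is named, and a gene is called, with the words rose, fell or differed, at a Benjamini-Hochberg adjusted p of at most 0.05 over the 10802 genes of an edgeR quasi-likelihood fit to the 12 libraries. Rab27a stood at 114, 113 and 96.1 CPM in KO cells with CpG and at 129, 116 and 94.9 CPM in KO cells without it, against 207, 216 and 285 CPM in WT cells with CpG and 231, 251 and 335 CPM in WT cells without it, so every KO library lay below every WT library. Rab27a in the KO stood at 0.455 of the WT level with CpG and 0.416 without it, so its transcript was still detected in KO cells. Ly6g, the marker used for selection, lay between 112 and 197 CPM in all 12 libraries. The summed level of 12 mature neutrophil markers was 116900, 75870 and 92030 CPM in KO libraries 1, 2 and 3 with CpG, the library numbered 2 being the lowest of all 12, and ran from 90750 to 104500 CPM in KO cells without it, 93750 to 107000 CPM in WT cells with CpG and 104700 to 107700 CPM in WT cells without it. The KO libraries stood apart from one another in markers of other cells: summed B-lineage markers were 7.50, 35.1 and 104 CPM in KO libraries 1, 2 and 3 with CpG and 6.61, 29.7 and 92.5 CPM without it, against 27.0 to 43.1 CPM in the WT libraries. Summed erythroid markers were 521, 1653 and 6053 CPM in KO libraries 1, 2 and 3 with CpG and 438, 1819 and 5960 CPM without it, against 3952 to 5201 CPM in WT. Of 7 erythroid markers 1 was lower in the KO with CpG and 1 without it. Hbb-bt had means of 2.98 and 2.00 CPM in the KO with and without CpG, against 368 and 388 CPM in WT. Of the 4 tested T and NK cell markers only Cd3d differed between genotypes, at means of 109 and 139 CPM in the KO with and without CpG against 3.94 and 4.58 CPM in WT, and Cd4, Cd8a and Nkg7 were not called. The part of these markers in the results below was not tested. Where leaving out both KO libraries of a number, a choice made after seeing the data, ended a call of one of the 9 genes, that value is given.

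**Figure D1:**
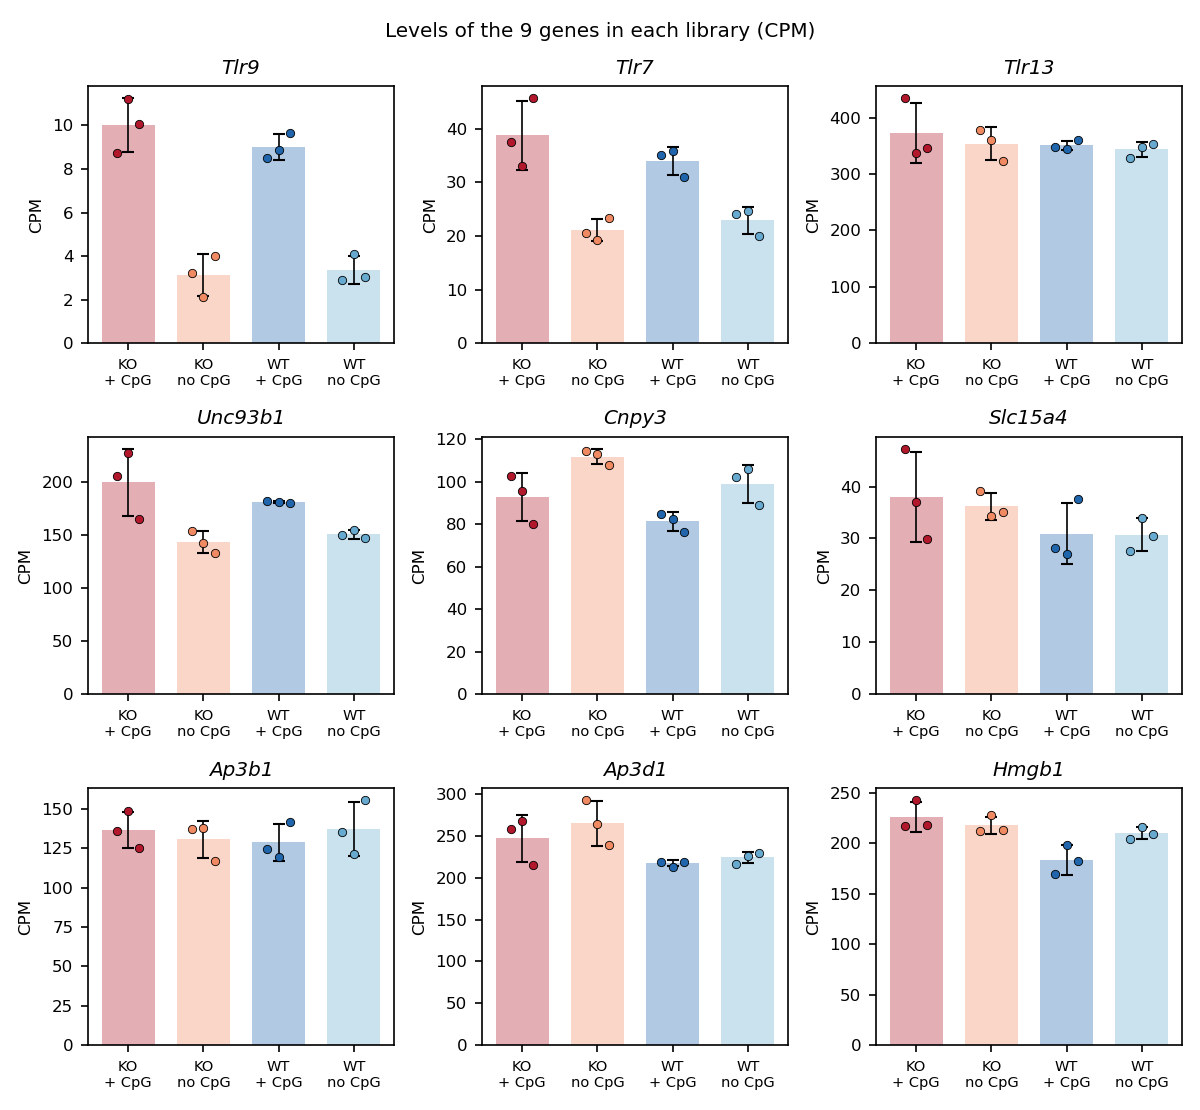
Levels of the 9 genes in each library, in CPM from 0 on the vertical axes, by group. Bars are means of 3 libraries, whiskers are SD and points are libraries in the order 1, 2 and 3. Tlr9 and Tlr7 are higher in every library with CpG than in any without it, while Tlr13 lies between 322 and 434 CPM throughout.

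Levels per transcript length, in TPM as deposited, put Tlr13 far above the other endosomal receptors and Tlr9 at the bottom of the 9 genes in all 4 groups. Tlr13 had 137, 114 and 127 TPM in KO cells with CpG and 138, 128 and 127 TPM in KO cells without it, against 123, 123 and 116 TPM in WT cells with CpG and 114, 124 and 115 TPM in WT cells without it. Tlr9 had 3.22, 4.46 and 4.32 TPM in KO cells with CpG and 1.37, 0.88 and 1.85 TPM in KO cells without it, against 3.50, 3.71 and 3.63 TPM in WT cells with CpG and 1.18, 1.70 and 1.16 TPM in WT cells without it. The Tlr13 level was therefore 32.5 ± 8.93 times the Tlr9 level in KO cells with CpG and 105 ± 38.7 times in KO cells without it, against 33.4 ± 1.64 and 89.6 ± 14.7 times in WT cells with and without CpG (SD, n = 3 each). Tlr7 lay between these receptors, at 12.95 ± 2.96 TPM in KO cells with CpG and 7.75 ± 1.17 TPM without it, against 11.5 ± 1.55 and 7.75 ± 1.15 TPM in WT cells with and without CpG.

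Tlr13 was the highest of the 9 genes in 3 groups, with means of 131 TPM in KO cells without CpG, 121 TPM in WT cells with CpG and 118 TPM in WT cells without it. In KO cells with CpG the highest mean was that of Unc93b1 at 128 ± 18.2 TPM, which overlapped Tlr13 at 126 ± 11.4 TPM, and Tlr13 in turn overlapped Hmgb1 at 112 ± 11.3 TPM, so these places are no clear order. Unc93b1 and Tlr13 also overlapped in WT cells with CpG (117 ± 6.97 and 121 ± 4.21 TPM). Hmgb1 and Unc93b1 took the next places in the other groups, at 117 ± 4.64 and 99.6 ± 4.94 TPM in KO cells without CpG and, overlapping, at 104 ± 5.96 and 97.0 ± 5.89 TPM in WT cells without it. Cnpy3, Ap3d1, Ap3b1, Slc15a4, Tlr7 and Tlr9 followed in the same order of means in all 4 groups. In KO cells without CpG Cnpy3, at 94.5 ± 2.53 TPM, overlapped Unc93b1. Cnpy3 and Ap3d1 overlapped in both groups with CpG, as did Slc15a4 and Tlr7, and Ap3b1 overlapped no neighbour, at means of 44.0 to 48.4 TPM. FPKM in place of TPM gave the same place for all 36 combinations of gene and group.

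**Figure D2:**
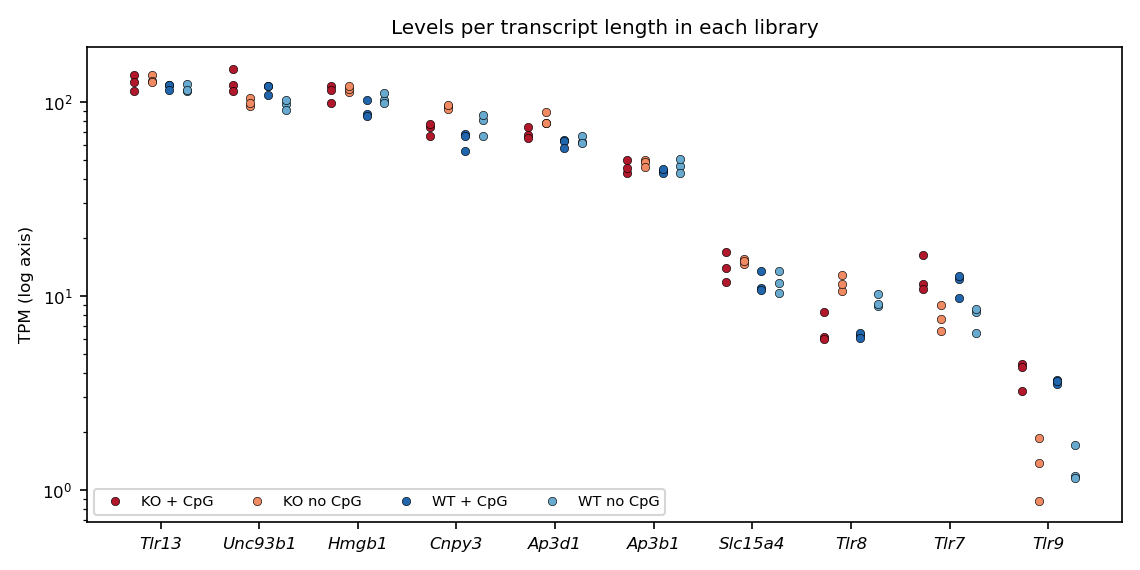
Level per transcript length (TPM, log axis) of the 9 genes and of Tlr8 in each library, by group. Tlr13 and Unc93b1 lie near 100 TPM and Tlr9 between 0.88 and 4.46 TPM, with the libraries with CpG above those without it for Tlr9 and below them for Tlr8.

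The endosomal receptor transcripts in the files (Tlr9, Tlr7, Tlr13, Tlr8, Tlr3 and Tlr12) can be added up per library as a pool in TPM, which is a description without a test. The pool summed to 150 ± 12.6 TPM in KO cells with CpG and 152 ± 7.18 TPM in KO cells without it, against 142 ± 5.97 and 136 ± 7.03 TPM in WT cells with and without CpG. The ranges of this total overlapped between treatments in each genotype, whereas the shares of Tlr9, Tlr7 and Tlr8 in it did not. Tlr13 held 84.0 ± 1.64% of the pool in KO cells with CpG and 86.3 ± 1.32% in KO cells without it, against 84.8 ± 0.648% and 86.4 ± 0.907% in WT cells with and without CpG. Tlr9 held 2.70 ± 0.642% in KO cells with CpG and 0.898 ± 0.320% in KO cells without it, against 2.55 ± 0.136% and 0.983 ± 0.169% in WT cells with and without CpG. Tlr7 held 8.63 ± 1.78% and 5.10 ± 0.784% in KO cells with and without CpG, against 8.07 ± 0.770% and 5.68 ± 0.719% in WT cells. Tlr8, a relative of Tlr7, held 4.51 ± 0.635% and 7.65 ± 0.366% in KO cells with and without CpG, against 4.43 ± 0.0678% and 6.90 ± 0.193% in WT cells. Tlr7 and Tlr8 thus changed places in this pool: Tlr7 held more of it than Tlr8 in every library with CpG, and Tlr8 more than Tlr7 in every library without it. Tlr3 and Tlr12 had at most 11 estimated counts in any library and were not tested.

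The first comparison asks what CpG did to each gene within a genotype. In KO cells 3 of the 9 genes rose and none fell, where 7.57% of all genes tested rose, 4.06% fell and 11.6% were called in either direction. In WT cells 2 of the 9 rose and none fell, where 4.74% of all genes rose, 1.3% fell and 6.04% were called in either direction. The median log2 fold change of the 9 genes was 0.07 in KO cells, against -0.01 for all genes, and 0.01 in WT cells, against -0.01 for all genes. Tlr9 and Tlr7 were called in both genotypes and Unc93b1 in the KO. These calls treat same-numbered libraries as independent. With the library number within a genotype as a block, Tlr9, Tlr7, Unc93b1 and Cnpy3 were called in both genotypes, Cnpy3 as lower. That block called 2591 genes in the KO and 1824 in WT. The 9 genes were chosen with earlier results of these data known, so their share beside that of all genes is a description. In bulk RNA, fewer cells of a type and less RNA per cell cannot be told apart, for these genes as for all others.

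Tlr9, the receptor of CpG DNA itself, rose about 3-fold from a low level. It had 8.72, 11.2 and 10.1 CPM in KO libraries 1, 2 and 3 with CpG, against 3.21, 2.11 and 4.02 CPM in KO libraries without it. In WT cells it had 8.48, 8.87 and 9.68 CPM with CpG, against 2.90, 4.11 and 3.05 CPM without it. Every library with CpG was higher than every library without it. The fold change was 3.21 in KO cells (log2 1.68, SE 0.23, interval at the 95% level 1.18 to 2.18, adjusted p = 0.000265) and 2.67 in WT cells (log2 1.42, SE 0.23, 0.93 to 1.91, adjusted p = 0.00154). These levels rest on 100 to 164 estimated counts per library in the KO with CpG and 24 to 48 without it, and on 112 to 116 and 34 to 56 in WT with and without CpG. The call held in all fits that left out a library, with log2 values from 1.47 to 1.87 in the KO and from 1.31 to 1.57 in WT.

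Tlr7, the receptor of single-stranded RNA, rose by less and from a higher level. It had 37.6, 33.1 and 45.7 CPM in KO cells with CpG, against 20.6, 19.2 and 23.3 CPM in KO cells without it. In WT cells it had 35.2, 36.0 and 31.1 CPM with CpG, against 24.1, 24.6 and 20.0 CPM without it. The groups did not overlap in either genotype. Tlr7 rose 1.84-fold in KO cells (log2 0.88, SE 0.14, adjusted p = 0.000742) and 1.49-fold in WT cells (log2 0.57, SE 0.14, adjusted p = 0.0237; 0.000713 with the library number within a genotype as a block, here the nested block). The KO call held in all alternatives, whereas the WT call was lost in 5 of 12 fits without a library, with an adjusted p of 0.0762, 0.0726 and 0.135 without unstimulated WT 1, 2 and 3 and of 0.0820 and 0.130 without WT CpG 1 and 2. It was also lost with scaling by library size alone (0.0851), with curated transcripts only (0.134) and without both KO libraries numbered 1 (0.0511).

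Markers of other cell types that express these receptors were read beside this result. Of 12 monocyte and macrophage markers, Csf1r and Adgre1 rose with CpG in both genotypes and the other 10 were not called. Their summed level was 1832 to 2362 CPM in KO cells with CpG and 1169 to 1204 CPM without it, against 1817 to 1869 and 1325 to 1350 CPM in WT cells with and without CpG, and no marker was at 0 in all libraries. Csf1r alone had means of 851 and 169 CPM in the KO with and without CpG, and 550 and 197 CPM in WT. It was higher in the KO with CpG (log2 0.63, adjusted p = 0.00986). Uncalled means went both ways with CpG in both genotypes, lower for Ccr2 and F13a1 and higher for Ly6c2 and Ms4a6c. Of 4 tested conventional dendritic cell markers Zbtb46 rose in the KO, at a mean of 2.05 CPM with CpG against 0.387 CPM without it (log2 2.38, SE 0.61, adjusted p = 0.0156), and the other 3 were not called. The sums of all 6 were 86.3 to 105 and 117 to 134 CPM in the KO with and without CpG, against 87.2 to 117 and 95.5 to 137 CPM in WT. Cd8a, one of the T and NK cell markers, also rose in the KO, at 2.63 CPM with CpG against 0.199 CPM without it (log2 3.62, SE 1.04, adjusted p = 0.0185). Of 7 B-lineage markers none was called, with sums of 7.50 to 104 and 6.61 to 92.5 CPM in the KO with and without CpG and 32.0 to 43.1 and 27.0 to 35.4 CPM in WT. Of 6 tested plasmacytoid dendritic cell markers Runx2 fell in both genotypes and Bst2 rose in the KO, and their defining marker Siglech stood at no more than 4.36 CPM in any library. The sums of all 8 plasmacytoid markers were 42.1 to 86.9 and 72.0 to 83.8 CPM in the KO with and without CpG, against 53.5 to 59.4 and 66.3 to 78.0 CPM in WT. The part of these markers in the Tlr9 and Tlr7 values was not tested. Without both KO libraries 1, where B-lineage markers were lowest, the KO log2 fold change was 1.77 for Tlr9 and 0.87 for Tlr7, and without both KO libraries 3, where they were highest, it was 1.90 and 0.81. Without both KO libraries 2 it was 1.38 and 0.93.

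Tlr13, the receptor of bacterial ribosomal RNA, was the most abundant of the receptors and was not called. It had 434, 337 and 346 CPM in KO cells with CpG, against 379, 360 and 322 CPM in KO cells without it. In WT cells it had 348, 343 and 360 CPM with CpG, against 329, 349 and 353 CPM without it. The groups overlapped in both genotypes. The log2 fold change was 0.07 in KO cells (interval -0.17 to 0.32, adjusted p = 0.792) and 0.03 in WT cells (-0.21 to 0.27, adjusted p = 0.959). In each genotype the upper bound lay below the lower bound of Tlr9 and of Tlr7 (0.58 for Tlr7 in the KO and 0.28 in WT).

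The escort gene Unc93b1 rose in KO cells. It had 206, 227 and 165 CPM in KO cells with CpG, against 154, 143 and 133 CPM in KO cells without it. In WT cells it had 182, 181 and 180 CPM with CpG, against 150, 155 and 147 CPM without it. The groups did not overlap in either genotype, and the 3 KO libraries with CpG spread more widely than those of WT. KO library 2 with CpG, which had the highest Unc93b1 level, was also the lowest in summed mature neutrophil markers and in S100a8 (5377 CPM, against 15610 and 13060 CPM in KO libraries 1 and 3 with CpG). The part of this in the Unc93b1 value was not tested. Without that library alone the log2 fold change in the KO was 0.37 and the call held. The fold change was 1.40 in KO cells (log2 0.48, SE 0.11, adjusted p = 0.0133) and 1.203 in WT cells (log2 0.27, SE 0.11, interval 0.02 to 0.51, adjusted p = 0.249; 0.0356 with the nested block). The KO call was lost without unstimulated KO 2 (adjusted p = 0.0581), without unstimulated KO 3 (0.0745), with only the groups compared (0.0522) and without both KO libraries numbered 2 (0.156).

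Cnpy3, the endoplasmic reticulum folding factor of these receptors, had lower values with CpG in both genotypes but did not pass in the main fit. It had 103, 95.6 and 80.2 CPM in KO cells with CpG, against 115, 113 and 108 CPM in KO cells without it. In WT cells it had 84.8, 82.7 and 76.5 CPM with CpG, against 102, 106 and 89.0 CPM without it. All libraries with CpG lay below all libraries without it in the same genotype. The log2 fold change was -0.27 in KO cells (SE 0.11, adjusted p = 0.156) and -0.29 in WT cells (SE 0.11, adjusted p = 0.191). With the nested block Cnpy3 passed in both, at an adjusted p of 0.0221 in the KO and 0.0269 in WT. With scaling by library size alone the KO value was 0.0308.

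Cnpy3 and Unc93b1 act at successive steps on the same receptors, and their levels per length can be set against each other. Cnpy3 had 0.572 ± 0.0468 TPM for each TPM of Unc93b1 in KO cells with CpG and 0.950 ± 0.0390 in KO cells without it, against 0.543 ± 0.0278 and 0.800 ± 0.0541 in WT cells with and without CpG (SD, n = 3 each). The ranges did not overlap between treatments, at 0.519 to 0.610 with CpG against 0.907 to 0.983 without it in the KO, and at 0.512 to 0.564 against 0.737 to 0.835 in WT. Without CpG the KO range also lay above the WT range, and with CpG the ranges of the genotypes overlapped. This ratio restates the Unc93b1 and Cnpy3 values given above and is no separate result. Unc93b1 stood at 32.5 ± 5.78 TPM for each TPM of Tlr9 in KO cells with CpG and at 79.4 ± 27.8 in KO cells without it, against 32.4 ± 2.25 and 73.8 ± 11.8 in WT cells with and without CpG. These ratios are descriptions and were not tested.

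The genes that act in transport and sorting were not called with CpG. Slc15a4, the transporter that holds TASL, had 47.2, 37.0 and 29.9 CPM in KO cells with CpG, against 39.2, 34.4 and 35.1 CPM in KO cells without it, and 28.1, 27.0 and 37.7 CPM in WT cells with CpG, against 27.6, 34.0 and 30.5 CPM in WT cells without it. Its groups overlapped, and the log2 fold change was 0.07 in KO cells (interval -0.29 to 0.43) and 0.01 in WT cells (-0.36 to 0.37). Ap3b1, the beta subunit of AP-3, had 136, 149 and 125 CPM in KO cells with CpG, against 137, 138 and 117 CPM in KO cells without it, and 125, 120 and 142 CPM in WT cells with CpG, against 135, 122 and 156 CPM in WT cells without it. Its log2 fold change was 0.06 in KO cells (-0.20 to 0.32) and -0.09 in WT cells (-0.35 to 0.16), with overlapping groups.

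Ap3d1, the delta subunit of AP-3, had 259, 267 and 215 CPM in KO cells with CpG, against 293, 264 and 239 CPM in KO cells without it, and 219, 213 and 219 CPM in WT cells with CpG, against 217, 226 and 230 CPM in WT cells without it. Its log2 fold change was -0.10 in KO cells (interval -0.33 to 0.13) and -0.05 in WT cells (-0.28 to 0.19), and the groups overlapped. Hmgb1 had 217, 243 and 218 CPM in KO cells with CpG, against 213, 228 and 213 CPM in KO cells without it, and 169, 199 and 183 CPM in WT cells with CpG, against 204, 216 and 209 CPM in WT cells without it. Its groups overlapped in the KO (log2 0.05, interval -0.15 to 0.26), and in WT every library with CpG lay below every library without it, although the difference did not pass (log2 -0.19, interval -0.40 to 0.01, adjusted p = 0.343). RefSeq lists 14 mouse genes whose symbols start with Hmgb1, itself included, and no other of them was found by symbol in the files. Whether reads from such copies were credited to Hmgb1 is unknown.

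**Figure D3:**
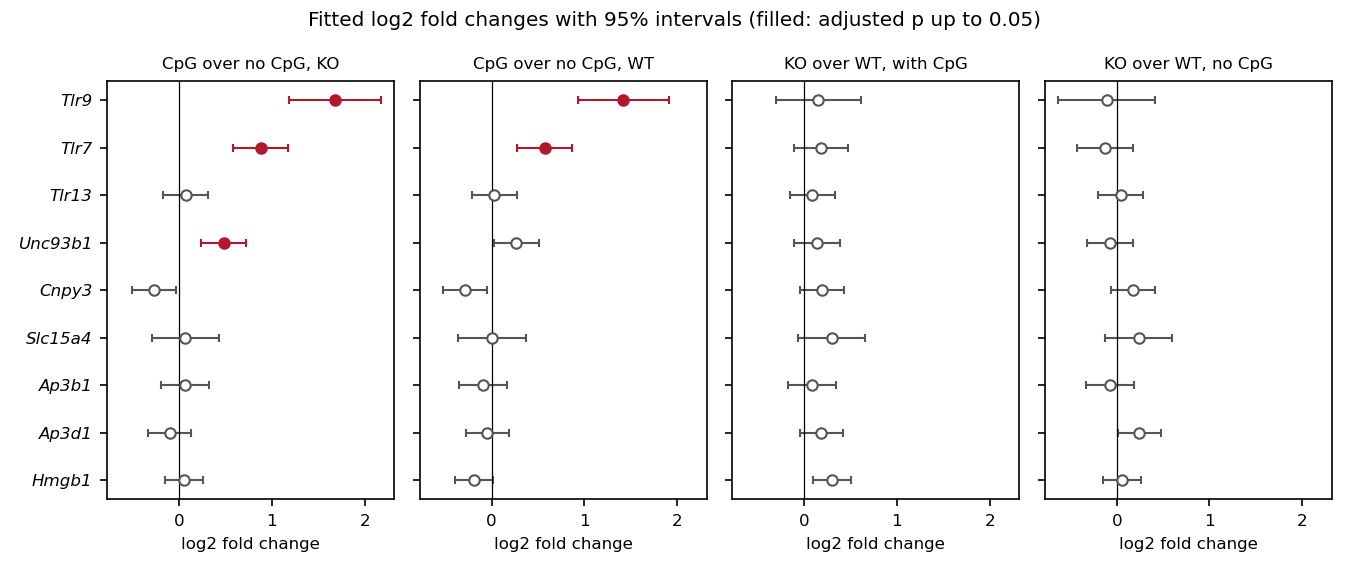
Fitted log2 fold changes of the 9 genes with intervals at the 95% level, for CpG over no CpG in KO and WT cells and for KO over WT with and without CpG. Filled points passed an adjusted p of 0.05: Tlr9, Tlr7 and Unc93b1 in the KO and Tlr9 and Tlr7 in WT, and none in the genotype comparisons.

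The second comparison sets KO cells against WT cells at a given treatment. Loss of Rab27a cannot be told apart here from any other difference between the KO and WT animals. With CpG none of the 9 genes was called, where 3.92% of all genes were, and without CpG none was called, where 4.75% of all genes were. At an unadjusted p of at most 0.05 only Hmgb1 passed with CpG and only Ap3d1 without it, where 18.1% and 17.6% of all genes did, and DESeq2 called Hmgb1 with CpG, where it called 6.33% of all genes, and none without it, where it called 6.31%. With CpG all 9 estimates lay above 0, from 0.09 to 0.30, with a median of 0.19 against 0.00 for all genes. The share of all genes above 0 was not computed. Tlr13 turned below 0 without KO CpG 1 (-0.039) and without both KO libraries 1 (-0.014). Without CpG 5 lay above 0 and 4 below, from -0.12 to 0.24, with a median of 0.04 against -0.01 for all genes.

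Hmgb1 came nearest to a difference between genotypes with CpG. It had 217, 243 and 218 CPM in the KO, against 169, 199 and 183 CPM in WT, so the groups did not overlap. The log2 fold change was 0.30 (SE 0.10, interval 0.10 to 0.51, adjusted p = 0.108), and DESeq2 gave 0.32 (adjusted p = 0.0153). Without CpG its groups overlapped and the log2 fold change was 0.05 (-0.15 to 0.26).

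Ap3d1 came nearest to a difference without CpG. It had 293, 264 and 239 CPM in the KO, against 217, 226 and 230 CPM in WT, with no overlap and a log2 fold change of 0.24 (SE 0.11, interval 0.01 to 0.47, adjusted p = 0.261). With CpG the log2 fold change was 0.19 (-0.05 to 0.42, adjusted p = 0.397) and the groups overlapped. The partner subunit Ap3b1 had log2 fold changes of 0.09 with CpG (interval -0.17 to 0.34) and -0.07 without it (-0.33 to 0.19), neither of which was called. Lack of overlap without CpG was not particular to Ap3d1. Cnpy3 (log2 0.17, adjusted p = 0.466) and Slc15a4 (0.24, 0.529) were also higher in every KO library there. With CpG their groups overlapped, at log2 0.19 for Cnpy3 and 0.30 for Slc15a4. The share of all genes whose groups did not overlap was not computed, here or for CpG.

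No difference between genotypes passed for the genes that rose with CpG, at either treatment. The log2 fold change of KO over WT with CpG was 0.15 for Tlr9 (interval -0.31 to 0.62), 0.19 for Tlr7 (-0.11 to 0.48) and 0.14 for Unc93b1 (-0.11 to 0.38). Without CpG it was -0.11 for Tlr9 (-0.64 to 0.42), -0.12 for Tlr7 (-0.42 to 0.18) and -0.07 for Unc93b1 (-0.32 to 0.17). Tlr13 stood at 0.09 with CpG (-0.16 to 0.33) and 0.04 without it (-0.20 to 0.29). The intervals of Tlr9 were the widest of the 9 genes, and its counts the lowest.

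Whether CpG acted differently in KO and WT cells was tested with an interaction term. It called none of the 9 genes and 0.0% of all genes, with 365 genes (3.38%) at an unadjusted p of at most 0.05, none of them among the 9, and 2 genes (0.0125%) by DESeq2. The difference of the CpG effect, KO minus WT, was 0.31 for Tlr7 (interval -0.11 to 0.73), 0.26 for Tlr9 (-0.44 to 0.96), 0.25 for Hmgb1 (-0.04 to 0.54) and 0.21 for Unc93b1 (-0.13 to 0.56), each with an adjusted p of 1.00 after rounding. The nested block called 13 genes, none of them among the 9. There the difference was 0.30 for Tlr7 (SE 0.12, adjusted p = 0.374) and 0.25 for Hmgb1 (SE 0.09, adjusted p = 0.330). It was 0.20 for Unc93b1 (SE 0.11, adjusted p = 0.540) and 0.27 for Tlr9 (SE 0.31, adjusted p = 0.813). In the main fit the estimates were above 0 for 8 of the 9 genes and had a median of 0.16, against 0.01 for all genes. The share of all genes above 0 was not computed. Those of Tlr13, Cnpy3 and Slc15a4 turned below 0 with scaling by library size and without both KO libraries 1. The sign of the Tlr9 difference turned without both KO libraries 2 (-0.04). The call of Unc93b1 in the KO alone is therefore not shown to be a difference between genotypes.

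The makeup of the counts by transcript differed among the 9 genes. Tlr9 and Tlr13 each had 1 transcript in the files, so their counts needed no division among isoforms. Tlr7 had 6, and its 1 predicted transcript held 11.3 to 26.4% of its counts in a library. Slc15a4 had 3, of which the predicted ones held 37.8 to 50.2%. For Unc93b1, Cnpy3 and Ap3b1 the predicted share stayed at or under 5.78%, for Ap3d1 it was 1.54 to 14.1%, and Hmgb1 had only curated transcripts. In the GRCm38.p6 annotation Slc15a4 overlaps Glt1d1 (2.17 CPM on average), and the sources used here do not state whether counting used strand.

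The rest of the pathway was read from 7 lists of 68 genes, of which 62 were tested. These lists were also chosen with earlier results of these data known. In KO cells 9 of these rose with CpG and 3 fell, where 7.57% of all genes rose and 4.06% fell. In WT cells 9 rose and 1 fell, where 4.74% of all genes rose and 1.3% fell. Between genotypes 1 was higher and 1 lower in the KO with CpG, and 2 were higher and 1 lower without it, which is near the 3.92% and 4.75% of all genes called there. The median log2 fold change with CpG was 0.06 in KO cells and 0.04 in WT cells, against -0.01 for all genes in both.

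Tlr8, the other endosomal receptor with enough counts, fell in both genotypes. It had 32.5, 21.6 and 20.1 CPM in KO cells with CpG, against 42.7, 36.7 and 36.4 CPM in KO cells without it, and 22.8, 22.7 and 23.0 CPM in WT cells with CpG, against 32.5, 35.8 and 35.3 CPM in WT cells without it. The libraries with CpG lay below those without it in both genotypes, the opposite order to Tlr7 and Tlr9. The log2 fold change was -0.65 in KO cells (SE 0.15, adjusted p = 0.0140) and -0.60 in WT cells (SE 0.15, adjusted p = 0.0358). It was called in 20 of 25 other fits in the KO (adjusted p up to 0.126, without both KO libraries numbered 2) and in 16 of 25 in WT (up to 0.120, without WT CpG 1).

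Of 18 tested signalling genes 7 rose in KO cells and 6 in WT cells, and none fell, beside the 7.57% and 4.74% of all genes that rose. No test compared this list with the others, and its choice with earlier results known means that these shares cannot show an excess. The gene 5430427O19Rik, the mouse counterpart of the adaptor TASL that SLC15A4 holds, had 21.0, 15.4 and 25.7 CPM in KO cells with CpG, against 4.25, 4.92 and 4.61 CPM in KO cells without it, and 15.8, 18.7 and 22.3 CPM in WT cells with CpG, against 6.74, 4.33 and 5.77 CPM in WT cells without it. Its rise, by log2 2.17 in the KO (SE 0.22, adjusted p = 1.84e-05) and 1.75 in WT (SE 0.21, adjusted p = 0.000167), stands beside the uncalled Slc15a4. Irak3, a kinase-family member that restrains MyD88 signalling, rose by log2 2.26 in the KO and 1.70 in WT (SE 0.15 each). Irf5, a transcription factor activated through SLC15A4 and TASL, rose by 1.53 and 1.10 (SE 0.11 each), and Traf3, the ubiquitin ligase that routes the signal towards interferon, by 1.49 and 1.09 (SE 0.13 each).

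Some of these calls depended on the transcripts used. With curated transcripts only, Traf3 had larger log2 fold changes with much larger errors and was not called, at 4.63 in the KO (SE 1.25, adjusted p = 0.0516) and 1.82 in WT (SE 1.10, adjusted p = 0.564). In the same setting 5430427O19Rik was not called in WT (log2 1.41, SE 0.37, adjusted p = 0.0602). Irak3 and Irf5 were called in all 25 other fits in both genotypes. Myd88, the shared adaptor of these receptors, rose by 1.19 in the KO and 0.75 in WT (SE 0.11 each) and was also called in all 25. Irf7, a transcription factor that drives interferon genes downstream of TLR7 and TLR9, rose in the KO, at 198 ± 55.0 CPM with CpG against 72.1 ± 15.5 CPM without it (log2 1.46, SE 0.26, adjusted p = 0.00249), and had 126 ± 46.5 CPM with CpG against 64.4 ± 12.3 CPM without it in WT, where it missed the threshold narrowly (log2 0.96, SE 0.26, adjusted p = 0.05003). Irak2, a kinase of the MyD88 complex, rose by 0.38 in the KO (adjusted p = 0.0328, called in 12 of 25 other fits) and 0.45 in WT (adjusted p = 0.0233, called in 20 of 25), both with SE 0.11. The interaction term called none of the 62 genes.

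The machinery around the receptors was read next, where 11.6% of all genes were called with CpG in the KO and 6.04% in WT. Of 10 folding and sorting partners, among which are Hsp90b1, the endoplasmic reticulum chaperone that works with CNPY3, and other escorts, none was called in either genotype. Of 18 tested genes of the rest of AP-3 and of the BLOC and HPS complexes, Dtnbp1, a subunit of BLOC-1, fell in the KO (log2 -0.53, SE 0.13, adjusted p = 0.0158; lost in 6 of 25 other fits, up to 0.145) and the other 17 were not called. None of these 18 was called in WT. The 4 other tested AP-3 subunits were among the uncalled: the mu subunit Ap3m1 had log2 fold changes of -0.02 in the KO and 0.06 in WT, the sigma subunits Ap3s1 0.21 and 0.29 and Ap3s2 0.03 and 0.07, and the mu subunit Ap3m2 0.40 and -0.19. The neuronal beta subunit Ap3b2 had a mean of at most 0.0255 CPM in any group and was not tested.

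Among 5 tested proteases that trim the receptors, Ctsb, a cathepsin, rose by log2 0.55 in the KO (SE 0.12, adjusted p = 0.00772) and 0.59 in WT (SE 0.12, adjusted p = 0.00812), and the other 4 were not called. It was called in 23 of 25 other fits in each genotype, and in the KO not without both KO libraries 2 (adjusted p = 0.103). The next list held 7 endolysosomal and cytosolic nucleases. Trex1, an exonuclease of cytosolic DNA, had 55.3, 91.4 and 90.2 CPM in KO cells with CpG, against 12.9, 14.5 and 9.21 CPM without it. In WT cells Trex1 had 37.7, 43.0 and 68.8 CPM with CpG, against 12.97, 8.37 and 14.4 CPM without it. It rose by log2 2.70 in the KO and 2.07 in WT (SE 0.27 each), the highest fold change among the 62 genes in both. Dnase1l3, a secreted DNase, rose in WT (log2 0.97, SE 0.19, adjusted p = 0.00738; -0.06 with curated transcripts only), and Rnaset2b, an endolysosomal RNase with a near-identical copy that makes its counts uncertain, fell in the KO (log2 -1.06, SE 0.21, adjusted p = 0.00406; 0.0858 without both KO libraries 2). Of the HMG-box relatives of Hmgb1 and its receptor Ager, none of 3 was called.

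Between genotypes the clearest difference near these receptors was in Pld3, an endolysosomal exonuclease that degrades DNA and limits TLR9 ligands. It had 17.5, 16.9 and 17.2 CPM in KO cells with CpG, against 36.6, 29.6 and 41.2 CPM in WT cells with CpG, and 14.6, 21.4 and 24.0 CPM in KO cells without CpG, against 36.6, 31.4 and 51.0 CPM in WT cells without it. Every KO library lay below every WT library. The log2 fold change was -1.06 with CpG (SE 0.20, adjusted p = 0.00762; lost only without both KO libraries numbered 2, at 0.0661) and -0.98 without it (SE 0.20, adjusted p = 0.0113; called in 19 of 24 other fits, and at 0.0668 and 0.0610 without both KO libraries 1 and 2). Irf5 was higher in the KO with CpG (log2 0.43, SE 0.11, adjusted p = 0.0408), a call that held in 11 of 24 other fits (0.0849 and 0.211 without both KO libraries 1 and 2). Slc15a3, a relative of Slc15a4, was higher in the KO without CpG (log2 0.63, SE 0.16, adjusted p = 0.0362, called in 17 of 24 other fits, 0.109 and 0.0702 without both KO libraries 1 and 2), as was Dnase1l3 (0.75, SE 0.19, adjusted p = 0.0426, called in 12 of 24).

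**Figure D4:**
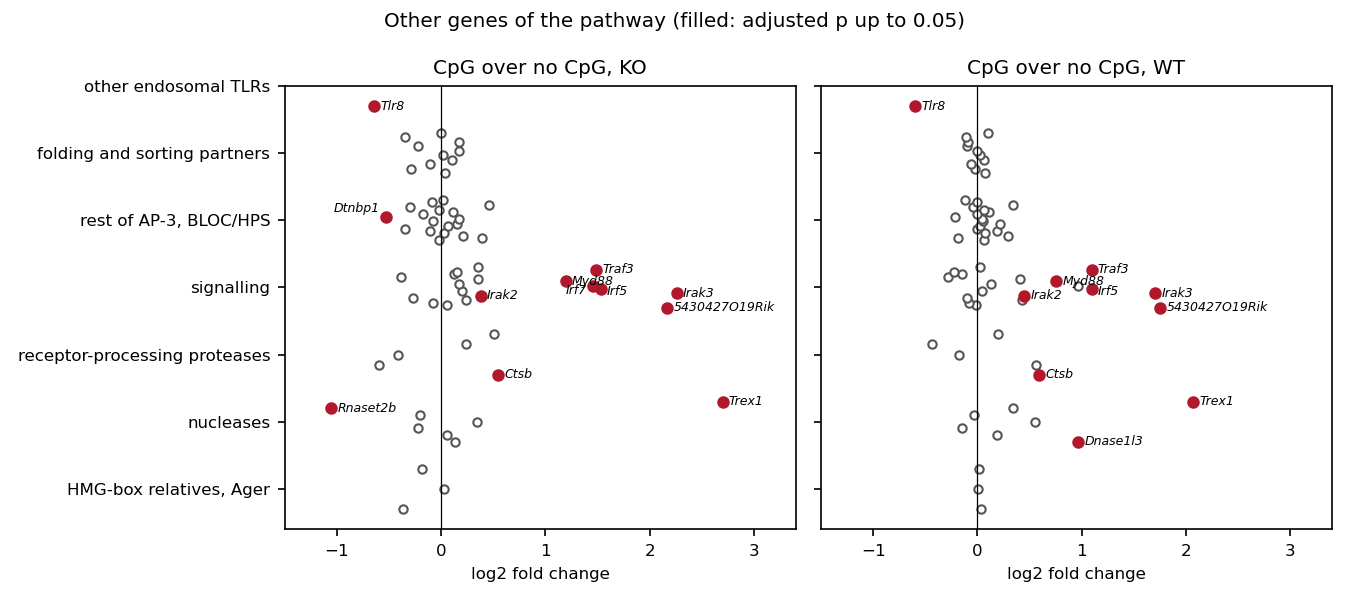
Log2 fold changes with CpG of the other pathway genes tested, in KO and WT cells, by list. Filled points with names passed an adjusted p of 0.05: the rises sit mostly in the signalling list and in Trex1 and Ctsb, and Tlr8 lies below 0 in both genotypes.

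Genes with the most similar pattern to 4 of the members over the 12 libraries are given as a description, by Pearson's r of log2 CPM among 7913 genes that averaged 5 CPM or more. All 12 libraries share the CpG split, and a gene that responds to CpG follows any other, so r after removing the group means is given too. Nearest to Tlr9 were Rfx5 (r = 0.974, within groups 0.682), Gpr84 (0.971, 0.710) and Apobec3 (0.971, 0.654). Nearest to Tlr7 were Rbbp7 (0.967, 0.860), Ube2f (0.966, 0.686) and Jak2 (0.964, 0.734). Nearest to Unc93b1 were Cyba (0.980, 0.929), Klc2 (0.962, 0.894) and Vcp (0.958, 0.850). Nearest to Tlr13, which did not follow CpG, were Copa (0.934, 0.941), Mcemp1 (0.917, 0.926) and Cr1l (0.890, 0.954).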

How the data were processed

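The authors deposited expected (estimated) counts, TPM and FPKM for each RefSeq transcript. The submitters' processing notes list Bowtie2, RSEM 1.2.28 and the build GRCm39, without roles. No source used here states a filter. The estimated counts deposited for 54716 transcripts were summed per gene and rounded. TPM and FPKM, scaled by the authors for transcript length, were summed per gene, TPM to compare levels between genes and FPKM as its alternative. Symbols, overlaps and upstream stretches came from RefSeq for GRCm38.p6, another build, so no gene coordinates were carried over. GENCODE transcript starts set where an upstream stretch was cut.

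filterByExpr (smallest count 10, smallest total 15) left 10802 genes. A quasi-likelihood model with 1 mean per group was fitted to the 12 libraries with TMM factors of 0.900 to 1.093 in edgeR 4.0.16 (R 4.3.3, limma 3.58.1), leaving 8 residual degrees of freedom. Standard errors and intervals come from that fit. The fit was tested on simulated data for CpG in WT. It called 77 of 100 genes changed 2-fold and 99 of 100 changed 4-fold in the right direction. Smaller changes were not simulated. The simulated libraries were independent with a single dispersion, so pairing of libraries was not covered.

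The members and lists were chosen with earlier results of these data known. Named were all members, up to 4 called genes per list with the largest change, every AP-3 subunit, and the 3 genes most like each of 4 members. Myd88, Irak2, Irf7, Hsp90b1, Ager, Pld3, Slc15a3, Rab27a and the markers fall outside that rule and were named after their values were seen.

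Same-numbered WT libraries deviated together (residual r of 0.279, 0.408 and 0.437, all above 0.1), and the labels number them alike, so values with the number within a genotype as a block (nested block) stand beside WT results where the call changes. Same-numbered KO libraries gave 0.619, 0.085 and 0.678.

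Alternatives were DESeq2 1.42.0, a robust fit, scaling by library size or relative log expression, no filter or one of 1 CPM in 3 libraries, the replicate number or the nested block, curated transcripts alone, the compared groups alone, and leaving out each library or, added after seeing the data, both KO libraries of a number.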

Additional observations from a re-analysis of the deposited data

How the results depend on the processing

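Of the values of the 9 genes under other settings, 1023 kept direction and side of the threshold, 12 lost a call, 5 gained one and 58 changed sign, all 58 among values never called. Tlr9 kept its call in both genotypes, and Tlr7 in the KO, under every setting run. Whole-series counts limit how these are read: CpG called 1257 genes in the KO (818 to 1347 without 1 library, 600 without both KO libraries 2, 2591 with the number within a genotype as a replicate block, the nested block) and 652 in WT (425 to 758, 425 with curated transcripts only, 1824 with the nested block), and KO over WT called 423 with CpG (234 to 699, 716 by DESeq2, 227 with curated transcripts, 253 with only the groups compared, 250 and 824 without both KO libraries 2 and 3) and 513 without it (278 to 604, 283 with curated transcripts, 341 and 300 without both KO libraries 1 and 2). The interaction called 0 (0 without any 1 library, 2 by DESeq2, 13 with the nested block). Of the 9 genes, CpG called 3 in the KO (2 to 3 without 1 library) and 2 in WT (1 to 2, 1 with library size scaling, with curated transcripts and without both KO libraries 1, 4 with the nested block, adding Unc93b1 and Cnpy3), and KO over WT with CpG called 0 (0 to 0, 1 by DESeq2). Library size scaling moved the split in the KO to 739 higher and 778 lower, against 818 and 439, and that of KO over WT with CpG to 155 and 314, against 184 and 239. With the nested block Cnpy3 also passed in the KO (adjusted p = 0.0221), and no other member's call changed. KO number 2 paired weakly, at a residual r of 0.085 against at most 0.030 with other numbers. Blocking on the replicate number alone changed no member's call. The causes were not tested. Sign changes in WT with CpG were those of Slc15a4, at -0.0045 with relative log expression, -0.016 with library size, -0.0057 with DESeq2, -0.015 with the 1 CPM filter, -0.0024 with the nested block, -0.042 with curated transcripts and -0.0097 and -0.017 without both KO libraries 1 and 3. With library size scaling, signs changed in the KO for Tlr13 (-0.0092), Slc15a4 (-0.024), Ap3b1 (-0.017) and Hmgb1 (-0.028), and in the interaction for Tlr13 (-0.021), Cnpy3 (-0.052) and Slc15a4 (-0.0078). Without both KO libraries numbered 1, signs changed with CpG in the KO for Tlr13 (-0.014) and Slc15a4 (-0.070), for KO over WT with CpG for Tlr13 (-0.014) and in the interaction for Tlr13 (-0.029), Cnpy3 (-0.043) and Slc15a4 (-0.061). Without both KO libraries 2 the interaction of Tlr9 changed sign (-0.043). For KO over WT without CpG they changed for Tlr9 without both KO libraries 2 (0.107) and for Ap3b1 without both KO libraries 3 (0.011). Leaving out 1 library, the uncalled log2 values that crossed 0 ran, with CpG in the KO, from -0.053 to 0.137 for Tlr13, -0.116 to 0.204 for Slc15a4, -0.050 to 0.111 for Ap3b1 and -0.0045 to 0.087 for Hmgb1. In WT they ran from -0.014 to 0.038 for Tlr13 and -0.170 to 0.074 for Slc15a4. For KO over WT with CpG Tlr13 ran from -0.039 to 0.180, and without CpG the ranges were -0.309 to 0.107 for Tlr9, -0.010 to 0.138 for Tlr13, -0.130 to 0.0096 for Unc93b1 and -0.124 to 0.040 for Ap3b1. In the interaction they were -0.081 to 0.122 for Tlr13, -0.061 to 0.115 for Cnpy3, -0.121 to 0.231 for Slc15a4 and -0.168 to 0.038 for Ap3d1. For the called genes of the pathway lists, 583 values kept their call, 86 lost it and 1 changed sign, Dnase1l3 in WT with curated transcripts (-0.055).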

Other observations

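The authors' division of Tlr7 counts among its 6 transcripts departed in KO library 2 with CpG from that in all other libraries, a point noticed after the values were seen. The curated transcript that held most Tlr7 counts in the study took 0.0021% of them there and at most 45.1% in the KO libraries with CpG. It took 37.7 to 56.3% in KO libraries without CpG, against 48.4 to 52.7% and 40.8 to 52.9% in WT libraries with and without CpG. Another curated transcript took 52.0% in that KO library. The gene total there was 484 estimated counts, against 431 and 585 in KO libraries 1 and 3 with CpG, which scaled for depth was the lowest of the 3, at 33.1 CPM against 37.6 and 45.7 CPM. The TPM of Tlr7 also depends on which transcript length the counts were given to.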
